A study of Homo sapiens with 12 samples.

Results

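The 251 genes described here are the numbered zinc finger genes of human chromosome 19: every entry of the deposited table whose symbol is ZNF followed by digits and at most 1 letter and that lies on chromosome 19 alone, with ZNF558 left out. They were 251 of 27130 genes in the table, beside 1486 other genes of chromosome 19 and 273 ZNF genes on other chromosomes. Apart from ZNF558, the choice went by symbol and position. ZNF558 meets both criteria and is not counted here; it stood at -3.38 on the log2 scale in KO over WT (edgeR adjusted p = 4.86e-14), so the counts below hold for the family without it. Poly(A) RNA was sequenced from H1 (WA01), a long-established human embryonic stem cell line, in 12 libraries, 3 per group. The groups were cells labelled as homozygous ZNF263 knockout (KO), the same knockout with ZIC2 overexpression (KO with ZIC2), ZNF263 overexpression (ZNF263 OE) and wild type (WT). KO and WT library names carry the tag vec, and the names of both knockout groups carry the tag 2-10. The kind of edit, the promoters that drove the overexpressed genes and whether the knockout was a single clone are not given in the sources used here.

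Most zinc finger genes of chromosome 19 encode DNA-binding proteins built from tandem C2H2 fingers, many with a KRAB domain. The KRAB domain binds TRIM28 (KAP1), which brings SETDB1, HP1 proteins and histone deacetylases to the bound site and so represses it. Many of these genes arose by local duplication, sit side by side in clusters, and silence transposable elements in pluripotent cells, while the gene bodies themselves carry repressive chromatin. ZNF263 is a zinc finger factor encoded outside chromosome 19, and ZIC2 is a zinc finger factor expressed in primed pluripotent cells.

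A script read the proteins from the GENCODE 29 coding sequences. Of 243 members with a coding sequence, 170 held a KRAB-like stretch and 242 at least 1 C2H2 finger, with a median of 12 and at most 36 fingers. The stretch was a fixed pattern of residues, so a protein without it may still hold a KRAB domain. The 4 members whose rises in the knockout open the results lie in the same neighbourhood of the long arm, and their promoters are printed because they rose together. Each is 300 bases long, 250 before and 50 after the start, read 5′ to 3′ on the gene's strand from the RefSeq table of GRCh38.p14, in which 212 members matched. Capitals mark CCGGAAG, the longest word that all 4 share; it holds the GGAA core that ETS factors are known to bind.
ZNF528 (chr19:52397599-52397898, plus strand): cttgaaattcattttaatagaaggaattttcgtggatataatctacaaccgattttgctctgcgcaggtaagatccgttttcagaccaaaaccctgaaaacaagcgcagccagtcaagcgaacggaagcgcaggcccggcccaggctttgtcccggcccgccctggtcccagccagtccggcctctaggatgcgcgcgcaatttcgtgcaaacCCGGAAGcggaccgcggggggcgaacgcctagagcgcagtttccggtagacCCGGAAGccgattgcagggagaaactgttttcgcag
ZNF880 (chr19:52369673-52369972, plus strand): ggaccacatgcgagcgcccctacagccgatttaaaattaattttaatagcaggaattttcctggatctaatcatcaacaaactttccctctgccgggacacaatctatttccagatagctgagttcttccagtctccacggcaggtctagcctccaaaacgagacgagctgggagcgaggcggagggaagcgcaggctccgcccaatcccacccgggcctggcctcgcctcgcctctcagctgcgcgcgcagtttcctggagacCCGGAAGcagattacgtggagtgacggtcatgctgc
ZNF841 (chr19:52095716-52096015, minus strand): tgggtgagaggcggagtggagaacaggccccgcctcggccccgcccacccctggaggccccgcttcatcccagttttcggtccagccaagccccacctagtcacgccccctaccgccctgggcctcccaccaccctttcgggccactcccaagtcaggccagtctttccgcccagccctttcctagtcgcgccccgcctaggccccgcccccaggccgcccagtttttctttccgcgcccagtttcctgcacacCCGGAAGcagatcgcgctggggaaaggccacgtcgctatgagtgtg
ZNF432 (chr19:52048789-52049088, minus strand): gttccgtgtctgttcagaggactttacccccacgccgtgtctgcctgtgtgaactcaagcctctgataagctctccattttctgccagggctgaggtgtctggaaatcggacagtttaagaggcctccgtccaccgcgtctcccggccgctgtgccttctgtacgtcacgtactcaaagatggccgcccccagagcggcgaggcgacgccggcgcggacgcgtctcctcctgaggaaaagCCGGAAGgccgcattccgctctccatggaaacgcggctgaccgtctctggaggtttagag

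The first 3 of these promoters also share the longer word ACCCGGAAGC. On either strand it lay in 19 of 212 member promoters (9.0%) and in 156 of 35116 promoters in the table (0.444%). CCGGAAG lay in 95 of 212 member promoters (44.8%), in 118 of 690 promoters of other tested chromosome 19 genes (17.1%) and in 3603 of all 35116 (10.3%). By direction, CCGGAAG stood in 10 of 18 promoters of members higher in KO, 21 of 42 of members lower in KO and 56 of 135 of tested members that passed in neither direction. The longer word stood in 4 of 18 promoters of members higher in KO, 3 of which it was taken from, 4 of 42 of members lower and 10 of 135 of members that passed in neither direction. Both words were picked after the values were seen, and from promoters counted here. ZNF528 starts 92 bases from the start of the antisense gene ZNF528-AS1, so their windows overlap by 191 bases. The promoters of ZNF528, ZNF880, ZNF841 and ZNF432 hold 27, 20, 22 and 27 CG dinucleotides, against a median of 20 over member promoters and 14 over all.

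The deposited counts totalled 17175183 to 21804410 per library, except KO replicate 1 with 43464609. ZNF263 stood at 31.1 ± 0.128 CPM in KO, 32.3 ± 3.15 in KO with ZIC2, 239.6 ± 18 in ZNF263 OE and 39.2 ± 1.35 in WT (SD, n = 3 each; CPM, counts scaled to the library total with TMM factors), and transcripts of the gene remained in the cells labelled knockout. ZIC2 stood at 2040 ± 175 CPM in KO with ZIC2, 156.1 ± 3.81 in KO, 212 ± 4.67 in ZNF263 OE and 208.5 ± 3.74 in WT (SD, n = 3 each). On the log2 scale it was 0.42 lower in KO than in WT (edgeR adjusted p = 3.39e-07) and 3.29 above WT in KO with ZIC2. Pluripotency markers summed to 9670 to 9830 CPM in KO, 9310 to 9450 in KO with ZIC2, 9600 to 9790 in ZNF263 OE and 9370 to 9450 in WT. Within this list markers moved both ways in KO over WT. POU5F1 rose by 0.39 on the log2 scale (edgeR adjusted p = 0.000782), while L1TD1 fell by 0.27 (adjusted p = 7.19e-07). The neural list, mostly NES, summed to 465 to 515 CPM in KO and 391 to 415 in WT, and 2 of its 6 markers were under 1 CPM in both. Within it NES stood at 465.1 ± 23.3 CPM in KO and 349.5 ± 8.73 in WT, while MAP2 went the other way, at 19.3 ± 2.27 CPM in KO and 45.2 ± 5.32 in WT (SD, n = 3 each; log2 fold change -1.24, edgeR adjusted p = 1.68e-10). The fibroblast list summed to 531 to 575 CPM in KO and 483 to 498 in WT, with 3 of 6, among them LUM and DCN, under 1 CPM. In bulk RNA, fewer cells of a type and less RNA per cell cannot be told apart, and the part of these shifts in the results was not tested.

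Members were expressed at modest levels. Of the 251 members, 3 had no count, 21 had too few counts to be tested (at most 90 over all libraries), and 227 were tested. Together they took 0.399 to 0.414% of counts in KO libraries, 0.401 to 0.417% in KO with ZIC2, 0.431 to 0.435% in ZNF263 OE and 0.441 to 0.448% in WT. The WT libraries did not overlap any other group on this share. In WT the median tested member stood at 3.18 RPKM (CPM per kilobase of gene length), 28 members passed 10 RPKM and 35 tested members lay under 1 RPKM. The highest were ZNF146, a protein that is almost wholly a run of fingers, at 62.6 RPKM, then ZNF787 at 41.1, ZNF93 at 28.3, ZNF358 at 25.9 and ZNF581 at 22.9 RPKM. Of these 5, only ZNF93 has a KRAB-like stretch.

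The cells labelled ZNF263 knockout were compared with WT to see which members moved in the knockout. More members were lower than higher in KO: 50 fell and 20 rose of 227 tested (edgeR quasi-likelihood test, Benjamini-Hochberg adjusted p under 0.05 over 15437 genes). The share called in either direction, 30.8% of tested members, was under the background of 38.6% over all genes. By direction, 22.0% of members were called lower against 18.5% of all genes, and 8.81% higher against 20.0%. ZNF genes on other chromosomes leaned the same way, with 73 lower and 23 higher of 241 (30.3% and 9.54%), while other chromosome 19 genes leaned the opposite way, with 45 lower and 396 higher of 886 (5.08% and 44.7%). The median log2 fold change, KO over WT, was -0.11 for members, -0.12 for ZNF genes elsewhere, 0.17 for other chromosome 19 genes and -0.01 for all genes. These medians are small shifts, and only 4 tested members changed by 2-fold or more on the fitted scale. KO and WT libraries did not overlap in CPM for 97 members (42.7%), against 46.7% of all genes.

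The lean towards lower values moved with GC content. Across 14696 genes, each KO library's log2 deviation from the WT mean rose with the GC content of the transcript (Spearman's rho 0.399 to 0.409 in the 3 KO libraries, 0.382 to 0.460 in KO with ZIC2, 0.147 to 0.267 in ZNF263 OE and -0.118 to 0.073 in WT). This is a description across genes that share a library, not a test. The tested members with a GC value were cut at 40.7 and 44.0% GC, which gave 3 groups of 75. Members were more often AT-rich than all genes: 2590 of the 14696 genes lay at or under 40.7% GC, and 10010 over 44.0%. At or under 40.7% GC the median was -0.17 for members and -0.15 for all 2590 genes. In the 75 members over 44.0% GC the median was -0.03, against 0.06 for all 10010 genes of that range and 0.18 for other chromosome 19 genes.

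When a per-library trend on GC content and length was removed, 14 members were lower and 20 higher in KO, and the member median was -0.01. The same correction gave 2061 lower and 2395 higher of all genes (28.9% called, against 15.0% of members) and brought the median of other chromosome 19 genes to 0.00. Of the 50 falls 12 were called again, and of the 20 rises 11, with none turned round. ZNF788, counted among these falls, has no GC value, so no trend was removed from it. The lean of the members towards lower values was not seen after the correction, while a smaller set of rises and falls was called both ways. Whether the GC trend arose in the cells or in the libraries was not tested.

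**Figure D1:**
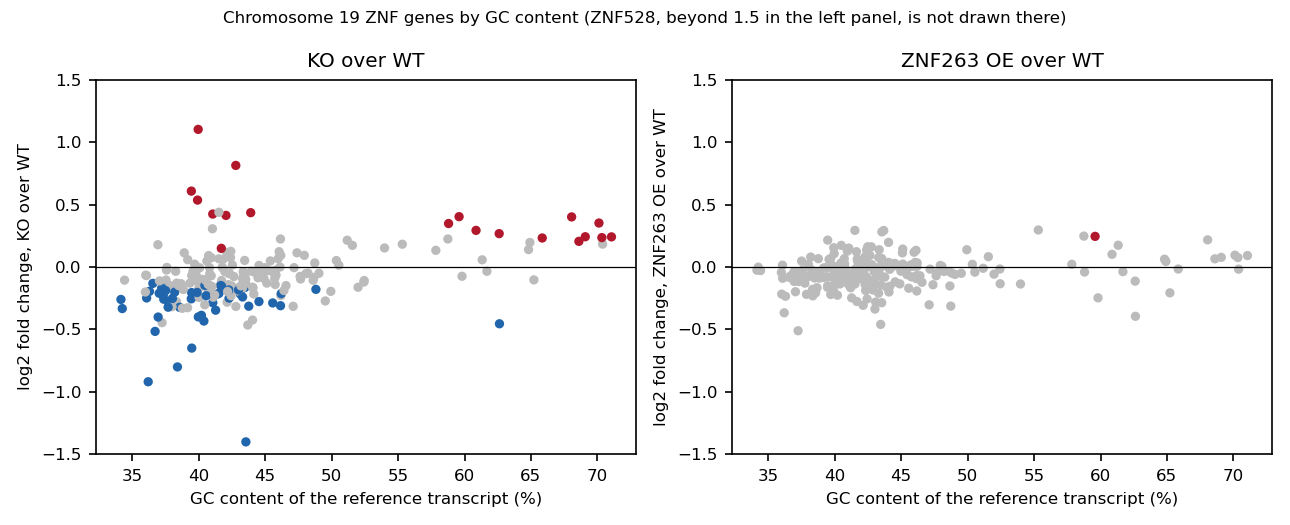
Log2 fold change of tested members with a GC value (points; ZNF528 lies beyond the axis on the left and is not drawn) against the GC content of its transcript in percent, for KO over WT (left) and ZNF263 OE over WT (right); red and blue points passed an adjusted p of 0.05 as higher and lower. Falls in KO lie mostly among AT-rich members, most GC-rich members called in KO were higher, and a separate group of AT-rich members, led by ZNF880 at 1.10, lies above the rest.

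**Figure D2:**
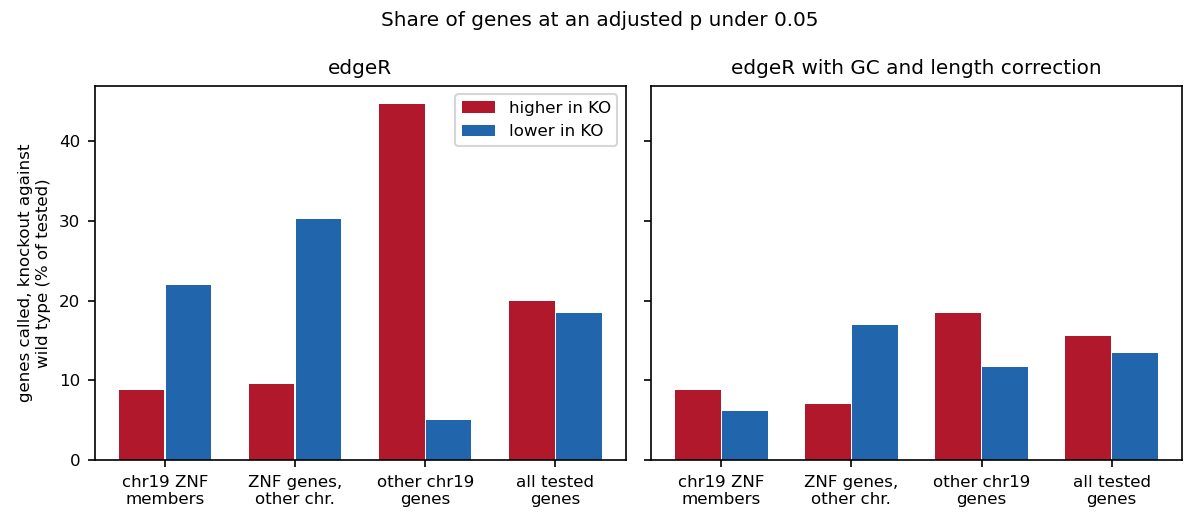
Share of tested genes called higher (red) or lower (blue) in KO than in WT, in percent, for 227 members, 241 ZNF genes of other chromosomes, 886 other chromosome 19 genes and all 15437 genes, before (left) and after (right) the GC and length correction. The share of members called lower is 22.0% before and 6.17% after, and the share called higher is 8.81% in both.

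The largest rise was that of ZNF528, a KRAB-type gene with 15 fingers (chr19:52901121-52921657, plus strand, hg19). It had 60, 24 and 28 counts in KO, 28, 19 and 20 in KO with ZIC2, 1, 1 and 3 in ZNF263 OE, and 2 counts in each WT library. It was near silent in WT and ZNF263 OE and detected in all 6 knockout libraries, with no overlap. Its fitted log2 fold change in KO was 3.60 (SE 0.38, edgeR adjusted p = 1.38e-07; 3.69 after GC correction), and the ratio of pooled counts, scaled by library size, was 12.8, with an exact 95% interval of 5.69 to 35.6 that covers counting error only. In KO its level was still low, at 1.32 ± 0.0683 CPM (SD, n = 3), under the minimum of 2 CPM set for named genes, so it was chosen after its values were seen. ZNF528-AS1, which is transcribed from the opposite strand and is no member, had 45 pooled counts in KO against 6 in WT, a ratio of 5.13 (95% interval 2.18 to 14.7; adjusted p = 0.00256).

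ZNF880, the next member upstream and also of KRAB type, had 8.27, 8.43 and 7.46 CPM in KO, 8.26, 7.73 and 8.20 in KO with ZIC2, 4.36, 4.21 and 3.63 in ZNF263 OE, and 3.58, 4.37 and 3.33 CPM in WT. All 6 knockout libraries lay above all others, and ZNF880 rose by 1.10 on the log2 scale in KO (SE 0.12, edgeR adjusted p = 1.26e-07; 1.22 after GC correction). ZNF841, with 20 fingers and a KRAB-like stretch, had 13.2, 12.2 and 12.3 CPM in KO against 6.36, 7.47 and 7.67 in WT, and rose by 0.82 (SE 0.11, adjusted p = 5.77e-06). Its neighbour ZNF432 had 7.50, 8.11 and 7.83 CPM in KO against 4.97, 6.08 and 5.0 in WT and rose by 0.54 (SE 0.12, adjusted p = 0.000788). Both had no overlap between groups, and the GC correction gave 0.92 and 0.69. Outside this neighbourhood ZNF829 (KRAB type, 9 fingers) had 8.27, 7.06 and 8.07 CPM in KO against 5.03, 5.39 and 5.10 in WT and rose by 0.61 (SE 0.10, adjusted p = 6.11e-05; 0.77 after correction). ZNF829 overlaps ZNF345 on the opposite strand, and counting on an unmarked strand cannot separate the pair.

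**Figure D3:**
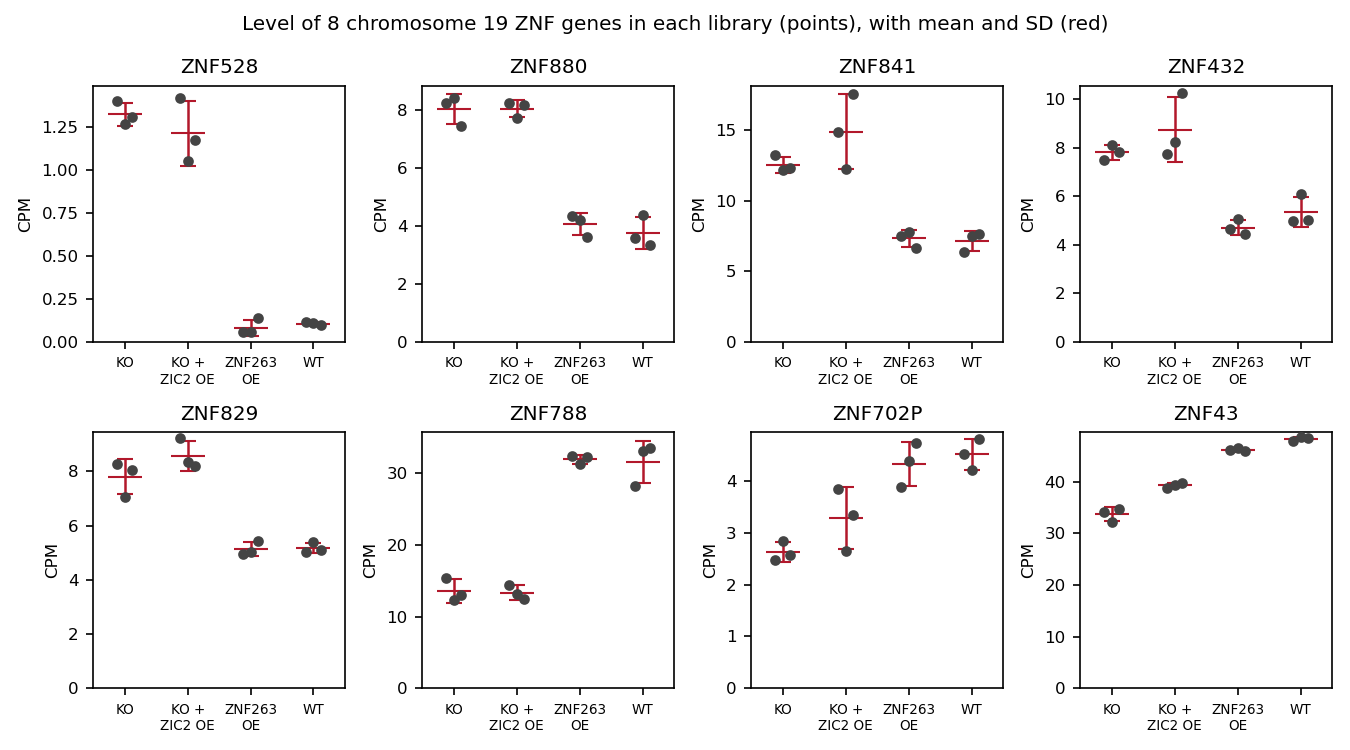
Level in CPM of ZNF528, ZNF880, ZNF841, ZNF432, ZNF829, ZNF788, ZNF702P and ZNF43 in each library (grey points), with the mean and SD of the 3 libraries of a group in red. The upper row and ZNF829 are high in both knockout groups; ZNF788, ZNF702P and ZNF43 are low there, and ZNF43 in KO with ZIC2 (39.3 CPM) lies between KO (33.7) and WT (48.3).

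The neighbourhood of ZNF528 is the block from ZNF175 to ZNF331 (chr19:52074490-54083523, hg19), in which members are at most 500 kb apart. Of its 43 members 41 were tested: 7 rose and 9 fell in KO, and after GC correction 12 were higher and 3 lower. Over all genes, 20.0% rose and 18.5% fell, and after correction 15.5% were higher and 13.4% lower. The rises were not shared by all neighbours. Between ZNF841 and ZNF880, in the same tandem array, ZNF616 had 51.8, 45.4 and 52.0 CPM in KO against 53.4, 57.1 and 55.4 in WT (log2 fold change -0.15, adjusted p = 0.025), and ZNF480 stood at -0.19 (adjusted p = 0.0161); each call was lost without 3 of the 6 libraries in turn (adjusted p up to 0.137 and 0.0794), and after correction neither was called (adjusted p 0.963 and 0.951). ZNF610 stood at -0.14 (adjusted p = 0.527) and ZNF836 at 0.07 (adjusted p = 0.58), neither called after correction. ZNF766 stood at 0.07 (adjusted p = 0.383) and was called higher after correction (0.17, adjusted p = 0.0156). Further on, ZNF578 rose to 3.36, 3.64 and 3.64 CPM in KO, against 2.66, 2.51 and 2.67 in WT (0.42, adjusted p = 0.0365; 0.58 and called after correction), a call lost when KO replicate 2 or 3 or any WT library was left out (adjusted p 0.0637 to 0.114). ZNF600 rose by 0.41 (adjusted p = 0.0385) and ZNF808 stood at 0.31 (adjusted p = 0.115). Both were called after correction (adjusted p 0.0122 and 0.0286). ZNF320 fell by 0.16 (adjusted p = 0.0124) and was not called after correction (0.848). PPP2R1A, a phosphatase subunit gene inside the array and no zinc finger gene, rose by 0.23 (adjusted p = 2.89e-05) and by 0.16 after correction. The median of other chromosome 19 genes was 0.17 before correction. In KO with ZIC2 against WT the 4 members with printed promoters stood at 3.46 for ZNF528, 1.10 for ZNF880, 1.05 for ZNF841 and 0.70 for ZNF432. These comparisons share the WT libraries, and the names of both knockout groups carry the same tag. In ZNF263 OE against WT the 4 members stood at -0.28, 0.11, 0.02 and -0.19, and no gene within 500 kb of ZNF528 was called. ZNF528 had 5 pooled counts in ZNF263 OE and 6 in WT, a ratio of 0.814 (exact 95% interval 0.197 to 3.2, counting error only), so a fall or a rise within that interval was not detectable at this depth.

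**Figure D4:**
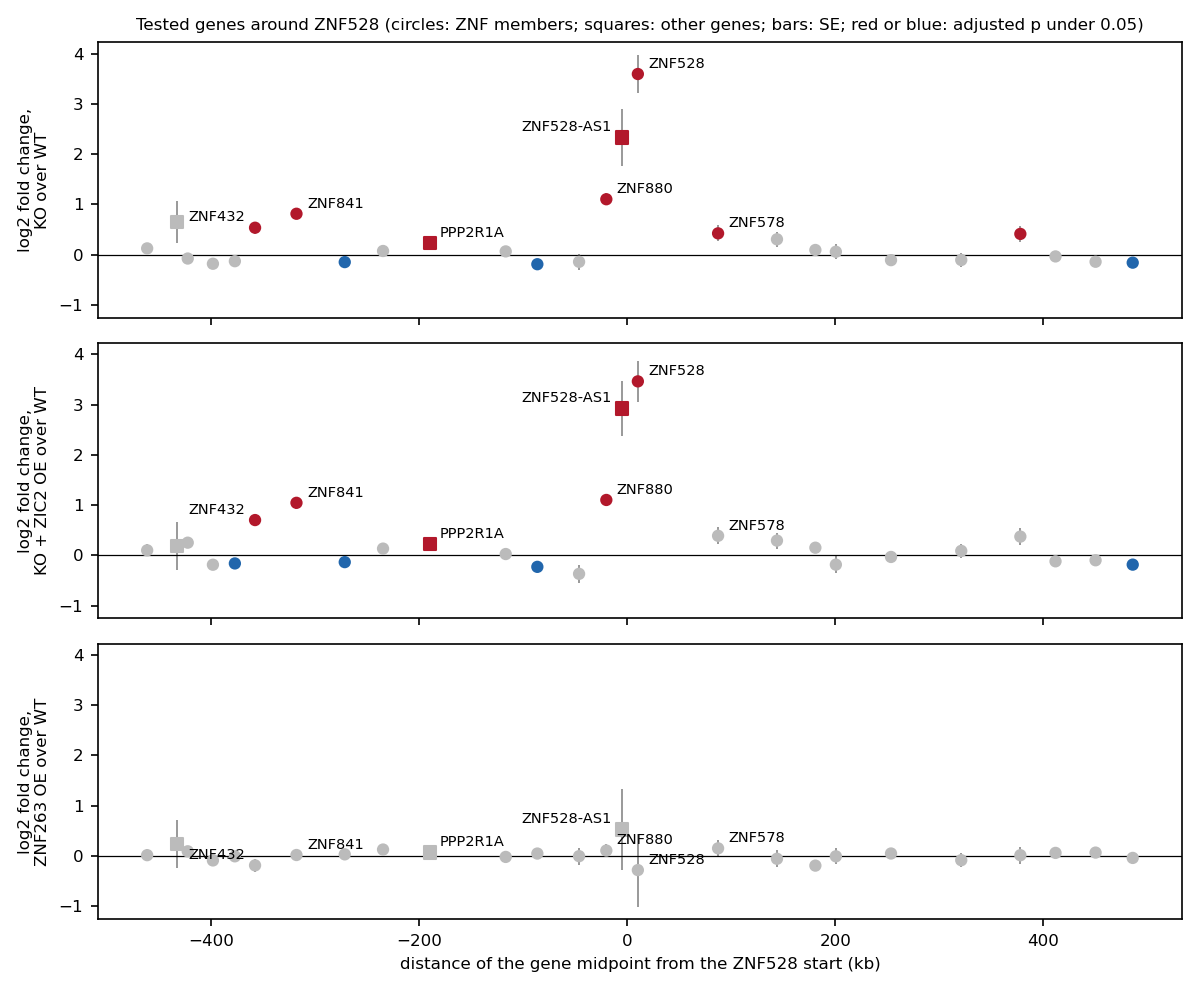
Log2 fold change (points) with its SE (bars) of tested genes within 500 kb of the ZNF528 start, against distance in kb, for KO, KO with ZIC2 and ZNF263 OE, each over WT; circles are members, squares other genes, and red or blue passed an adjusted p of 0.05. ZNF528, ZNF880, ZNF841 and ZNF432 are high in both knockout panels, with members near 0 between them, and no gene passed in the bottom panel.

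**Figure D5:**
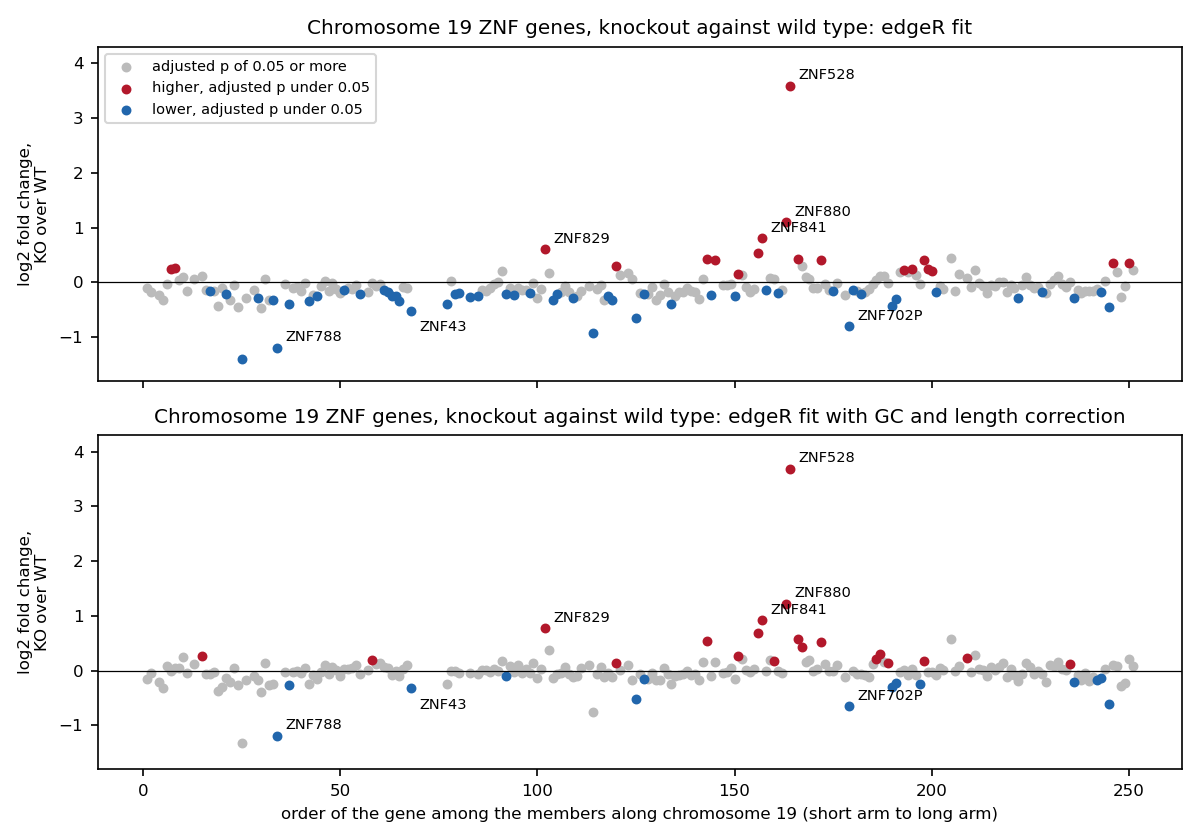
Log2 fold change, KO over WT, of the 227 tested members in their order along chromosome 19, before (top) and after (bottom) GC and length correction; red and blue points passed an adjusted p of 0.05 as higher and lower. The falls spread along the chromosome thin out after correction, from 50 to 14, while ZNF528, ZNF880, ZNF841 and ZNF432 are called in both panels.

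The falls were led by ZNF788, which had 15.4, 12.3 and 13.1 CPM in KO, 14.4, 13.1 and 12.4 in KO with ZIC2, 32.4, 31.2 and 32.2 in ZNF263 OE, and 28.3, 33.1 and 33.5 CPM in WT. The knockout libraries lay far below all others, and ZNF788 fell by 1.19 on the log2 scale in KO (SE 0.08, edgeR adjusted p = 8.56e-11). It lies at chr19:12203078-12225494 (hg19) and matched no GENCODE 29 transcript by symbol, so it has no GC value and was not corrected. ZNF702P, whose symbol marks a pseudogene, had 2.47, 2.85 and 2.57 CPM in KO against 4.51, 4.21 and 4.81 in WT and fell by 0.80 (SE 0.15, adjusted p = 0.000136; -0.65 and called after correction). The file headers name unique alignments only, so reads that match several near-identical copies would not be counted, and the level of such a copy is uncertain. ZNF283, of KRAB type, had 3.08, 3.69 and 4.29 CPM in KO against 5.43, 6.08 and 5.34 in WT and fell by 0.65 (SE 0.14, adjusted p = 0.000957; -0.52 and called after correction).

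ZNF43, a KRAB-type gene with 19 fingers, had 34.2, 32.3 and 34.7 CPM in KO against 48.0, 48.6 and 48.4 in WT. Its replicates lay close together in every group, and it fell by 0.52 (SE 0.05, adjusted p = 1.25e-08; -0.32 and still called after correction). ZNF497, a GC-rich gene with 14 fingers and no KRAB-like stretch, had 2.70, 2.58 and 2.33 CPM in KO against 3.24, 3.89 and 3.43 in WT and fell by 0.46 (SE 0.15, adjusted p = 0.0198); correction made this -0.62, and the call was lost without KO replicate 3 (adjusted p = 0.0616) or WT replicate 2 (0.0996). Larger fitted changes of low genes, -1.40 for ZNF491 and -0.92 for ZNF781, rested on 84 and 106 counts over all libraries and were not called after correction; they were named after their values were seen.

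Of 10 members with known roles, 2 rose and 3 fell in KO (edgeR adjusted p under 0.05), and 1 was higher and 3 were lower after correction. Over all tested genes, 20.0% rose and 18.5% fell, or 38.6% called. After correction 15.5% were higher and 13.4% lower, or 28.9% called. ZNF91, which represses SVA elements, fell by 0.21 in KO (adjusted p = 0.0118), to 33.8 ± 2.97 CPM against 39.4 ± 1.03 in WT (SD, n = 3 each), but stood at -0.01 after correction. ZNF93, which represses L1 elements, stood at -0.10 (adjusted p = 0.126), with 73.7 ± 1.96 CPM in KO and 79.1 ± 1.61 in WT. ZNF417 and ZNF587, close paralogs that target HERV-K, stood at -0.29 (adjusted p = 0.002, called also after correction) and -0.09 (adjusted p = 0.135). ZNF649 rose by 0.15 (adjusted p = 0.0199; 0.26 after correction), to 60.5 ± 1.48 CPM against 54.6 ± 0.646 in WT; the call was lost without KO replicate 1 or any single WT library (adjusted p 0.0526 to 0.0811).

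ZNF274, which binds the ends of other zinc finger genes, stood at -0.12 (adjusted p = 0.105) and passed after correction (-0.17, adjusted p = 0.0178). ZNF331, an imprinted gene, fell by 0.31 (adjusted p = 9.84e-05; -0.23 and called after correction), to 49.4 ± 3.05 CPM in KO against 61.5 ± 3.55 in WT. ZNF350 (ZBRK1), a BRCA1-binding repressor, stood at -0.08 and ZNF382, a KRAB repressor, at -0.14, neither called. ZNF296, whose mouse counterpart is linked to pluripotency, rose by 0.40 (adjusted p = 0.0034), to 10.5, 11.5 and 8.95 CPM in KO against 8.09, 6.77 and 8.53 in WT, but at 68.1% GC it was not called after correction (0.15, adjusted p = 0.275). The most abundant members split in the same way by GC. ZNF146 (41.4% GC) fell by 0.22 in KO (adjusted p = 5.13e-05; -0.10 and called after correction) and ZNF581 (59.6% GC) rose by 0.40 (adjusted p = 5.99e-06; 0.18 and called). ZNF787 and ZNF358, at 70.3 and 69.1% GC, were both 0.24 higher and lay at -0.02 and -0.01 after correction.

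By the KRAB-like stretch, 36 of 154 tested members with one fell in KO and 7 rose, against 11 lower and 13 higher of 67 without one. The medians were -0.12 and -0.09, the median GC contents 41.9 and 43.3%. After correction the counts were 8 lower and 14 higher with the stretch, and 4 lower and 6 higher without it. Over all tested genes, 18.5% fell and 20.0% rose before correction, and 13.4% and 15.5% after it. Members with 10 or more fingers gave 39 lower and 10 higher of 162, and those with 1 to 9 fingers 7 lower and 10 higher of 58, with GC medians of 41.7 and 44.9%. After correction these were 10 lower and 16 higher with 10 or more fingers, and 2 lower and 4 higher with 1 to 9. Among clusters, the block from ZNF101 to ZNF254 near the centromere, with a median GC of 37.4%, gave 12 falls and no rise among 25 tested members, and 1 of each after correction. The block from ZNF628 to ZNF835, at 59.6% GC, gave 5 rises and 1 fall among 15, and 1 of each after correction. Of all 2590 genes at or under 40.7% GC, 4.32% were called higher and 44.9% lower before correction. Of all 10010 genes over 44.0% GC, 27.3% were called higher and 9.59% lower.

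The cofactors through which KRAB proteins act were listed separately. Of 23 genes, all tested, 2 rose and 12 fell in KO, and 3 were higher and 1 lower after correction. The shares of all tested genes were 20.0% higher and 18.5% lower, and 15.5% and 13.4% after correction. TRIM28, itself on chromosome 19 and the protein that KRAB domains bind, had 1514, 1531 and 1519 CPM in KO against 1196, 1169 and 1193 in WT and rose by 0.36 (SE 0.03, edgeR adjusted p = 1.25e-08; 0.17 after correction). CHD3, a remodeller of the NuRD complex, rose by 0.75 (adjusted p = 7.5e-09; 0.69 after correction). CBX1, an HP1 protein, fell by 0.23 (adjusted p = 1.54e-05; -0.21 after correction), and HDAC2, a histone deacetylase, fell by 0.21 (adjusted p = 2.26e-05) but lay at 0.00 after correction. SETDB1 stood at -0.06 (adjusted p = 0.297).

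The letters GGGAGGA, of the kind ZNF263 is known to bind, were searched on both strands of the member promoters. They lay in 45 of 212 (21.2%), against 22.7% of promoters of other chromosome 19 genes and 18.1% of all 35116. They stood in 15 of 42 promoters of members lower in KO (35.7%), 2 of 18 of members higher and 24 of 135 of tested members that passed in neither direction. Among members lower in KO after GC correction they stood in 4 of 11. In KO with ZIC2 over WT they stood in 10 of 37 promoters of lower members (2 of 10 after correction) and 28 of 140 of those that passed in neither direction. None of the 4 promoters printed above holds them. The promoter of ZNF43 is shown because this gene fell in KO and holds a match. Capitals mark GGGAGGA and CTTCCGG, which is CCGGAAG read on the other strand.
ZNF43 (chr19:21836133-21836432, minus strand, GRCh38.p14): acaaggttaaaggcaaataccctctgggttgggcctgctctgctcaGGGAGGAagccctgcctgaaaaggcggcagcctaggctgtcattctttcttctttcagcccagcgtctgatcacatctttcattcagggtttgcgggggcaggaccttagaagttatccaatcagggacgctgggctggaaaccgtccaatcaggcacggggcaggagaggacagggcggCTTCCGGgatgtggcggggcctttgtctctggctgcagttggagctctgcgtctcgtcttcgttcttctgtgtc
CAGCAGG, of the kind ZIC proteins are known to bind, lay in 18 of 212 member promoters (8.49%), against 10.5% of all. A match is a description of the letters and not a bound site.

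Adding ZIC2 to the knockout moved few members. Against KO, 3 members rose and 1 fell of 227, or 1.76% called, against 8.34% of all genes (4.99% higher, 3.35% lower), and 26 had an unadjusted p under 0.05, as did 3079 of all 15437 genes. ZNF844, of KRAB type, had 6.94, 7.78 and 8.08 CPM in KO with ZIC2 against 6.20, 5.64 and 5.74 in KO (log2 fold change 0.36, SE 0.11, edgeR adjusted p = 0.0355). ZNF350 had 7.55, 7.34 and 8.38 CPM against 6.24, 5.74 and 6.44 in KO (0.33, SE 0.10, adjusted p = 0.037). ZNF43 had 38.9, 39.4 and 39.8 CPM against 34.2, 32.3 and 34.7 in KO (0.22, SE 0.05, adjusted p = 0.00395). ZNF90, of KRAB type, fell to 50.8, 58.5 and 62.4 CPM against 67.1, 64.4 and 64.2 in KO (-0.19, SE 0.06, adjusted p = 0.03).

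Groups did not overlap for any of these 4 members, which the naming rule required. In this comparison the groups did not overlap for 15.0% of tested members and 21.8% of all genes. Only the call of ZNF43 was kept when each library was left out in turn. That of ZNF350 was lost without any single library (adjusted p 0.0509 to 0.167), that of ZNF844 without KO replicate 2 or 3 or KO with ZIC2 replicate 2 or 3 (0.0653 to 0.14), and that of ZNF90 without KO replicate 1 or 3 or KO with ZIC2 replicate 1 (0.0549 to 0.243). ZNF43 and ZNF844 were the 2 members called lower in KO than in WT and higher in KO with ZIC2 than in KO. The same count was not made over all genes, so no background share stands beside it. The KO against WT call of ZNF844 (-0.31, adjusted p = 0.0205) was lost without 2 of the 6 libraries in turn (adjusted p 0.0535 and 0.136) and after GC correction (0.0886). Both comparisons share the KO libraries. ZNF528, ZNF880 and ZNF788 stood at -0.13, 0.00 and -0.05 for KO with ZIC2 over KO, each at an adjusted p of at least 0.81.

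Against WT, KO with ZIC2 showed 45 members lower and 18 higher of 227, or 27.8% called, against 37.6% of all genes (17.3% lower, 20.3% higher). After GC correction 13 were lower and 18 higher, beside 28.1% of all genes called. Of the 45 falls 11 were called again, and of the 18 rises 9. The count of rises was 11 without WT replicate 2. ZNF880, ZNF841, ZNF829 and ZNF432 rose by 1.10, 1.05, 0.73 and 0.70, and ZNF296 by 0.60, to 12.7, 11.1 and 11.6 CPM against 8.09, 6.77 and 8.53 in WT (edgeR adjusted p = 0.000128; 0.38 and called after correction). ZNF788 fell by 1.25 (SE 0.09, adjusted p = 1.68e-10). ZNF284, with 11 fingers, fell to 2.63, 3.09 and 2.81 CPM against 3.64, 4.37 and 4.86 in WT (-0.60, adjusted p = 0.00302), and ZNF420, of KRAB type, by 0.48 (adjusted p = 0.00016). ZNF702P fell by 0.46 (adjusted p = 0.0186), a call lost without KO with ZIC2 replicate 2 (0.117) or WT replicate 3 (0.0714). ZNF846 fell by 0.63 (adjusted p = 0.0378), and its call was lost without any library of these groups other than WT replicate 2 (0.0522 to 0.224). GC correction kept 9 of the 11 calls named for this comparison, ZNF528 among the 11, and lost 2.

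ZNF263 overexpression left the members near their WT levels. ZNF581, a GC-rich gene with 4 fingers, was the only member called, with 32.4, 34.4 and 33.1 CPM in ZNF263 OE against 28.9, 26.0 and 29.3 in WT (log2 fold change 0.25, SE 0.06, edgeR adjusted p = 0.0428), or 0.441% of members against 0.764% of all genes (0.317% higher, 0.447% lower). This call was lost when any 1 of the 6 libraries was left out (adjusted p 0.0771 to 0.296) and under DESeq2 (0.077), which called 0 members. No member was lower at the threshold, and 20 of 227 had an unadjusted p under 0.05 in either direction, as did 1630 of all 15437 genes. The member median was -0.04, against 0.00 over all genes, and no member changed by 2-fold. ZNF788, at 31.9 ± 0.634 CPM in ZNF263 OE and 31.6 ± 2.92 in WT, and ZNF43, at 46.2 ± 0.375 and 48.3 ± 0.351 CPM (SD, n = 3 each), were not called.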

How the data were processed

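The deposited values are raw counts, whole numbers for each gene that the authors had not normalized. The submitters' processing notes list STAR, featureCounts, DESeq2 and the build hg19 and give no versions; per the file headers, the alignments counted were unique ones. Per the labels' protocols the kit was NEBNext Ultra II RNA. No label says that the libraries within a group are separate cultures, so p-values measure the spread between these samples only, which may be technical.

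CPM and RPKM were computed from the counts with TMM factors and the deposited gene lengths. The quasi-likelihood test of edgeR 4.0.16 (R 4.3.3) was fitted to all 12 libraries and 15437 genes passing filterByExpr, with group as the only term, and adjusted over all genes. Members were printed from that fit, which was tested on simulated data. GC content came from GENCODE 29 transcripts by symbol (14696 tested genes); the GC and length correction fitted a loess trend (span 0.3) per library. Fingers were counted in translated GENCODE 29 coding sequences in place of RefSeq proteins, and promoters came from RefSeq.

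The members, lists and naming rule were chosen with earlier results of these data known. The rule took, per comparison, up to 5 rises and 5 falls, the largest called, of members with at least 2 CPM and no overlap, members called in opposite directions, the 5 highest in RPKM, 10 members with known roles and up to 4 cofactors; other genes were named after their values were seen. Alternatives were RLE factors, DESeq2 1.42.0, no filter, a minimum fold of 1.2, a replicate block, GC correction, 2 groups alone and leaving out each library.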

Additional observations from a re-analysis of the deposited data

How the results depend on the processing

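Counts of members are given as lower and higher. In KO against WT (50 and 20), DESeq2 gave 33 lower, a minimum fold of 1.2 (glmTreat) 5 and 5, GC correction 14 lower (median -0.015, against -0.111), and the replicate block with GC correction 16 lower (median -0.014); leaving out 1 library gave 37 to 44 lower and 14 to 22 higher. With GC correction, alone and with the replicate block, the direction of KO over WT turned for ZNF787 (-0.023 and -0.024), ZNF358 (-0.008 and -0.010), ZNF93 (0.025 and 0.029), ZNF587 (0.014 and 0.018) and ZNF350 (0.007 and 0.014), none of them called, and ZNF382 lay at -0.039 and 0.000. Uncalled values close to 0 also changed sign: ZNF382 in KO over WT ranged over -0.299 to 0.087 when 1 library was left out. In KO with ZIC2 over KO, ZNF880 was at 0.001 with the replicate block, 0.003 with block and GC correction and 0.001 with 2 groups alone, and ranged over -0.048 to 0.027 when 1 library was left out, as ZNF788 did over -0.117 to 0.070. In ZNF263 OE over WT, leaving out 1 library gave -0.055 to 0.092 for ZNF841 and -0.061 to 0.056 for ZNF788. In KO with ZIC2 against KO (1 and 3), RLE factors gave 3 lower, no filter 2 lower, the replicate block 2 lower, DESeq2 1 higher, the minimum fold 0 and 0, 2 groups alone 0 and 1, GC correction 4 and 5, and block with GC correction 5 and 6; leaving out 1 library gave 0 to 2 lower and 1 to 3 higher. In KO with ZIC2 against WT (45 and 18), the minimum fold gave 3 and 6, GC correction 13 lower (median 0.002, against -0.083) and block with GC correction 12 lower (median 0.000); leaving out 1 library gave 11 to 18 higher and medians of -0.096 to -0.076. In ZNF263 OE against WT (0 and 1), DESeq2, the minimum fold, the replicate block, GC correction and block with GC correction gave 0 higher and 2 groups alone 1 lower; with GC correction the median was -0.020 and, with the block, -0.019 (against -0.039), and leaving out 1 library gave 0 higher and medians of -0.052 to -0.034. The cause was not tested.

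The replicate numbers did not pair the libraries (correlations of same-numbered deviations -0.11 to 0.112). Of the 50 falls and 20 rises in KO, 45 and 19 were also called with the replicate block. In the KO with ZIC2 against KO comparison the block lost ZNF844 (adjusted p = 0.0512). Counts limit ZNF528, at 2 per WT library, to the interval given.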
